A study of Mus musculus with 12 samples.

Results

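The cholinergic identity genes of motor neurons are a set of 6 genes, chosen by name: Chat, Slc18a3, Slc5a7, Ache, Isl1 and Mnx1. All 6 were found, by Ensembl identifier and GENCODE M21 symbol, among 33906 identifiers measured by poly(A) RNA sequencing of the mouse lumbar spinal cord, and all 6 passed the filter on low values that left 18119 genes. The 12 libraries came from 4 groups of 3 mice. In group P, mice that model amyotrophic lateral sclerosis (ALS) were given phosphate-buffered saline (mice P66, P67 and P74). Group C held ALS model mice given manganese-doped carbon dots, particles with superoxide dismutase-like activity (C79, C84 and C85). Group E was read as ALS model mice given the radical scavenger edaravone (E75, E77 and E90), by elimination, because the series text lists a code E but describes edaravone under a code D. Healthy wild-type animals formed group H (mice H1, H2 and H4). The sources used here do not give the model's strain and allele, or the age, sex and dosing of the mice. Each number names a separate mouse, and each library held 16.8 to 19.8 M reads as recovered from the deposited values.

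Motor neurons of the ventral spinal cord drive skeletal muscle through acetylcholine. Chat makes acetylcholine from choline and acetyl-CoA, the vesicular transporter Slc18a3 (VAChT) loads it into synaptic vesicles, Ache breaks it down after release, and the high-affinity transporter Slc5a7 takes the freed choline back into the terminal. The LIM homeodomain factor Isl1 and the homeodomain factor Mnx1 (HB9) act when motor neurons are specified in the embryo, and Isl1 switches on cholinergic genes there. Isl1 is also made by other spinal neurons and by sensory neurons.

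Coordinates are those of GRCm38. Chat (ENSMUSG00000021919) and Slc18a3 (ENSMUSG00000100241) share one place in the genome, the cholinergic locus. Chat spans chr14:32408203-32465989 on the minus strand. The single-exon gene Slc18a3 lies at chr14:32462438-32464850 on the same strand, inside intron 1 of 4 of the 8 annotated Chat transcripts, and the 2 genes share no exon base. Slc5a7 (ENSMUSG00000023945) lies at chr17:54273590-54299034 on the minus strand. Ache (ENSMUSG00000023328) lies at chr5:137287519-137294466 on the plus strand, and 98 of its 4623 exon bases (2.12%) are shared with the antisense gene model Gm42456. Isl1 (ENSMUSG00000042258) lies at chr13:116298281-116309689 and Mnx1 (ENSMUSG00000001566) at chr5:29473034-29478470, both on the minus strand. The counting is not stated to use strand, so reads from the shared bases of Ache and Gm42456 cannot be told apart. Slc18a3 lies on the Chat strand inside a Chat intron, so reads of unspliced Chat RNA there cannot be told from Slc18a3 reads. Their share was not tested.

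The 3 promoters below are shown because Chat and Slc18a3 have separate start sites within 1 locus and are the synthesis and loading steps of one pathway, with the choline transporter gene for comparison. Each is the 250 bases before the RefSeq start site (GRCm38.p6), written 5′ to 3′ on the gene's own strand. They span chr14:32465910-32466159 for Chat, chr14:32464851-32465100 for Slc18a3 and chr17:54299035-54299284 for Slc5a7, all on the minus strand. Capitals mark the CCAAT box (CCAAT), the GC box (GGGCGG) and the TATA box (TATAAA), read on either strand.
Chat: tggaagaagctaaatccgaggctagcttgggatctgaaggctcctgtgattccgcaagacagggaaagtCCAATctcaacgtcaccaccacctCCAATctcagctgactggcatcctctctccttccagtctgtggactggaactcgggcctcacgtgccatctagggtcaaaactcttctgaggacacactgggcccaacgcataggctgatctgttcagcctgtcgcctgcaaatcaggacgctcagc
Slc18a3: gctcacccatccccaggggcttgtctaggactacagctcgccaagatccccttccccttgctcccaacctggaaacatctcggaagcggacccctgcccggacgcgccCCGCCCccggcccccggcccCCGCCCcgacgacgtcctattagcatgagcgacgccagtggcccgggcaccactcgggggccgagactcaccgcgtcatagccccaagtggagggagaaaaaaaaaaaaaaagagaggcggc
Slc5a7: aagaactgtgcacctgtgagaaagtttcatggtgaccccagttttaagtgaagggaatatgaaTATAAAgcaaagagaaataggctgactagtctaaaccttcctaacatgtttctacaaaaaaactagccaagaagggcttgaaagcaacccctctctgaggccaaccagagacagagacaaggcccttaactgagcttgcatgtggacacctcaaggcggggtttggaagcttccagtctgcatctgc

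The start sites of Chat and Slc18a3 are 1059 bases apart. The Chat window held 2 CCAAT boxes, 157 and 181 bases before the start, and no GC box. The Slc18a3 window held 2 GC boxes on the opposite strand, 122 and 142 bases before its start, and no CCAAT box. The Slc5a7 window held neither and had TATAAA at 187 bases before the start. Their GC contents were 54.8, 66 and 45.6%, against a median of 52.4% over 32851 RefSeq windows of the same length. Over those windows CCAAT was present in 33.8%, GGGCGG in 32.7% and TATAAA in 12.4%, so each of these matches is common. CCAAT was also present before Isl1 and Mnx1, and GGGCGG before Ache and Mnx1. Both REST half-sites searched (TTCAGCACC, in 0.301% of windows, and GGACAG, in 18.7%) were in none of the 6 windows, as were the homeodomain palindrome TAATTA (4.84%) and the full cAMP response element TGACGTCA (1.55%). Its half-site TGACG (17.8%) was in the windows of Chat, Slc18a3 and Isl1, and the homeodomain core ATTA (54.9%), which TAATTA contains, was in those of Slc18a3, Isl1 and Mnx1. The E-boxes CAGCTG (13%; Chat and Isl1), CAGATG (14.4%; Slc5a7) and CAGGTG (17.2%; Slc5a7 and Mnx1) were also searched. A match is a run of letters and was not tested as a binding site.

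The mean level of all 6 members was lower in the ALS model cords than in healthy cords. Averaged over the 9 ALS model mice, levels were 35.0% of the H mean for Mnx1, 39.5% for Slc18a3, 48.8% for Chat, 56.7% for Slc5a7, 76.0% for Ache and 78.6% for Isl1. Levels are FPKM, that is reads relative to exon length and to library size, so levels of different genes can be set side by side. Differences were tested with limma on log2(FPKM + 1), in 1 fit of all 12 libraries, with p-values adjusted by the Benjamini-Hochberg method over 18119 genes. A gene passed with an adjusted p under 0.05. With the 3 ALS model groups set together against H, Slc18a3, Ache and Mnx1 fell, and Chat and Slc5a7 lay just outside the threshold. No member passed between C and P, between E and P or between C and E. In whole cord, fewer motor neurons and less of an RNA per motor neuron cannot be told apart.

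**Figure D1:**
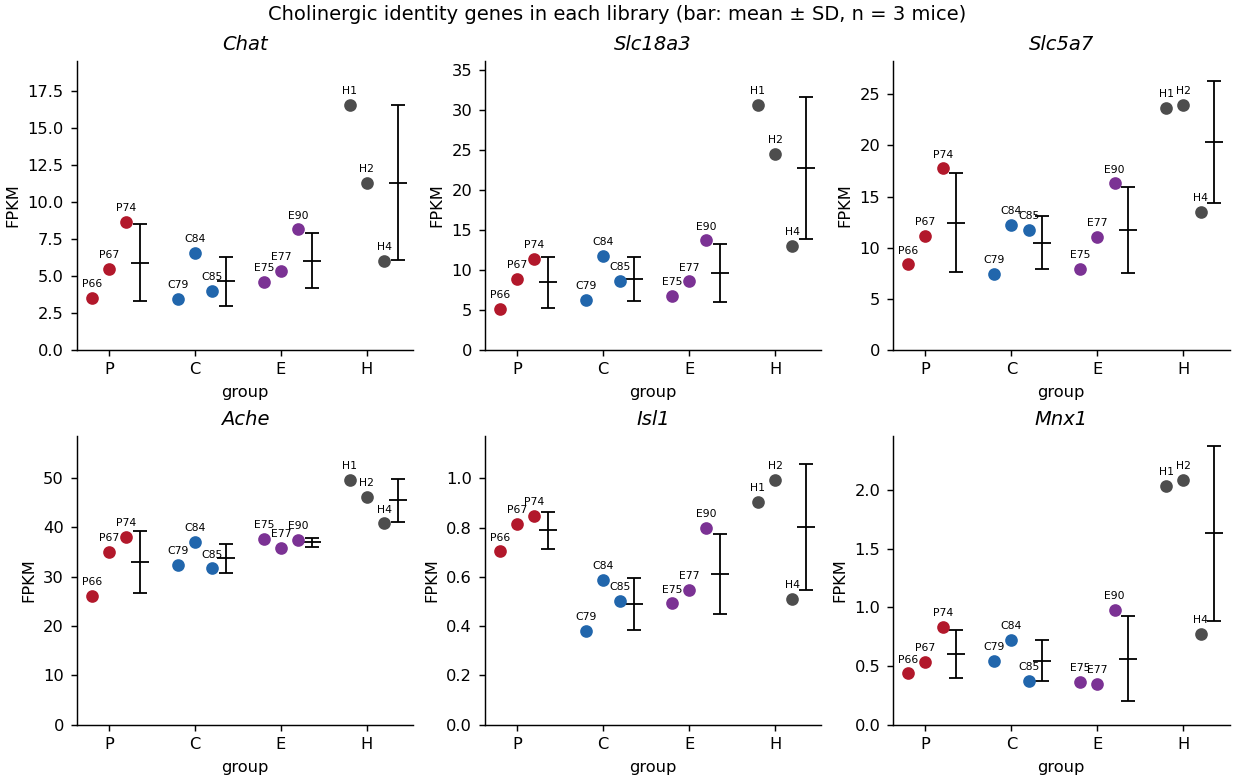
FPKM of the 6 genes in each library, 1 panel a gene, with groups P, C, E and H along the x axis, a point for each mouse and the group mean ± SD (n = 3) beside the points. H1 and H2 were the top 2 libraries for all 6 genes, while H4 lay among the ALS model libraries for every gene but Ache, for which it was the lowest H library and above all 9.

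For Chat, the enzyme of acetylcholine synthesis, the P libraries had 3.49 (P66), 5.48 (P67) and 8.67 (P74) FPKM. The C libraries had 3.41 (C79), 6.52 (C84) and 3.98 (C85) FPKM, and the E libraries had 4.58 (E75), 5.35 (E77) and 8.14 (E90) FPKM. The H libraries had 16.6 (H1), 11.3 (H2) and 6.03 (H4) FPKM. H1 and H2 stood above all 9 ALS model libraries, but P74, C84 and E90 were above H4, so the groups overlapped. Chat differed by -0.81 ± 0.35 (log2 ± SE) in P against H (limma adjusted p = 0.137) and by -0.87 ± 0.29 in the ALS model against H (limma adjusted p = 0.0528), and it passed in neither.

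Slc18a3, the vesicular acetylcholine transporter, had 5.07 (P66), 8.84 (P67) and 11.4 (P74) FPKM in P. It had 6.26 (C79), 11.7 (C84) and 8.64 (C85) FPKM in C and 6.71 (E75), 8.54 (E77) and 13.7 (E90) FPKM in E. In H it had 30.6 (H1), 24.5 (H2) and 13.0 (H4) FPKM. E90 was the only ALS model library above the lowest H library. The fall in P against H was 2.48-fold (-1.31 ± 0.35, limma adjusted p = 0.0300), and the fall in the ALS model against H was 2.33-fold (-1.22 ± 0.29, limma adjusted p = 0.0131). Both were the largest differences among the 6 genes on this scale.

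Slc5a7, which returns choline to the nerve terminal, had 8.35 (P66), 11.2 (P67) and 17.8 (P74) FPKM in P. It had 7.46 (C79), 12.2 (C84) and 11.8 (C85) FPKM in C and 7.87 (E75), 11.0 (E77) and 16.3 (E90) FPKM in E. In H it had 23.7 (H1), 24.0 (H2) and 13.5 (H4) FPKM. P74 and E90 were above H4, and the other 7 ALS model libraries were below all H libraries. Slc5a7 differed by -0.69 ± 0.31 in P against H (limma adjusted p = 0.151) and by -0.77 ± 0.26 in the ALS model against H (limma adjusted p = 0.0514), and passed in neither.

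Ache, which breaks acetylcholine down, had the highest level of the set in every library and the smallest difference of those that passed. It had 26.1 (P66), 35.1 (P67) and 38.1 (P74) FPKM in P and 32.4 (C79), 37.0 (C84) and 31.7 (C85) FPKM in C. It had 37.7 (E75), 35.9 (E77) and 37.4 (E90) FPKM in E, against 49.6 (H1), 46.1 (H2) and 40.8 (H4) FPKM in H. Ache was the only member for which all 9 ALS model libraries were below all 3 H libraries, an arrangement that 2.63% of the 18119 tested genes shared. It fell by 1.38-fold in P against H (-0.46 ± 0.13, limma adjusted p = 0.0342) and by 1.31-fold in the ALS model against H (-0.39 ± 0.11, limma adjusted p = 0.0237).

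The 2 transcription factors were at the bottom of the set. Mnx1 had 0.438 (P66), 0.538 (P67) and 0.836 (P74) FPKM in P and 0.545 (C79), 0.723 (C84) and 0.372 (C85) FPKM in C. It had 0.367 (E75), 0.346 (E77) and 0.980 (E90) FPKM in E, against 2.04 (H1), 2.08 (H2) and 0.771 (H4) FPKM in H. These levels rest on 13 to 37 reads per ALS model library and 30 to 86 reads per H library, as recovered from the FPKM values. P74 and E90 were again above H4. Mnx1 fell in the ALS model against H (-0.71 ± 0.18, limma adjusted p = 0.0158), and in P against H it differed by -0.68 ± 0.22 (limma adjusted p = 0.0533). The added 1 FPKM compresses a gene of this level: with 0.1 added in its place, the same differences were -1.32 (limma adjusted p = 0.0198) and -1.22 (limma adjusted p = 0.0697).

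Isl1 had 0.703 (P66), 0.815 (P67) and 0.847 (P74) FPKM in P and 0.380 (C79), 0.589 (C84) and 0.504 (C85) FPKM in C. It had 0.492 (E75), 0.548 (E77) and 0.798 (E90) FPKM in E, against 0.903 (H1), 0.992 (H2) and 0.511 (H4) FPKM in H. All 3 P libraries lay between H4 and H1. Isl1 differed by -0.00 ± 0.11 in P against H (95% interval -0.25 to 0.25, limma adjusted p = 0.994) and by -0.14 ± 0.09 in the ALS model against H (limma adjusted p = 0.305). At 27 to 57 reads per ALS model library and 35 to 72 per H library, a change of this gene smaller than these intervals was not detectable.

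**Figure D2:**
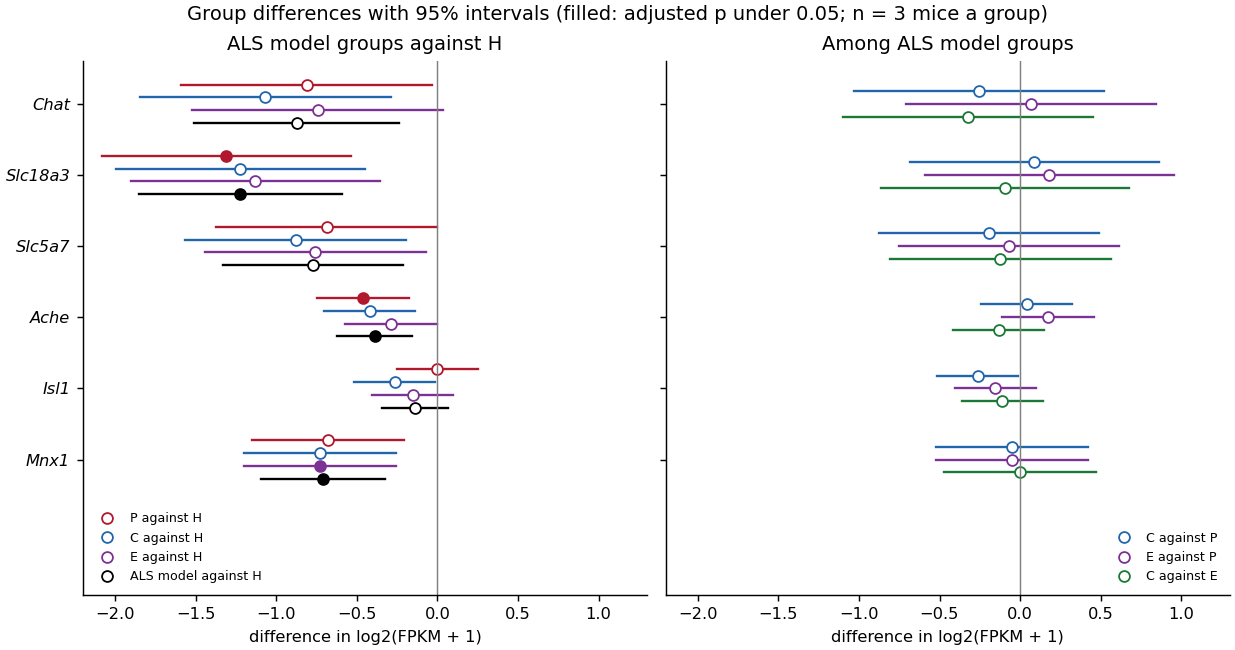
Difference in log2(FPKM + 1) of each gene with its 95% interval, for P, C, E and the mean of the 3 ALS model groups against H (left) and among the ALS model groups (right); filled points have a limma adjusted p under 0.05. The values for Slc18a3 against H lie between -1.31 and -1.13, those for Isl1 between -0.27 and -0.00, and every interval on the right except that of Isl1 in C against P crosses 0.

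Against all genes tested, 2 of the 6 members (Slc18a3 and Ache) passed as lower in P against H, where 3.26% of genes were called lower, and none was higher, where 12.2% of genes were called higher. The median difference over all tested genes was 0.07 in P against H. In the ALS model against H, 3 of 6 members were lower beside 4.2% of all genes, and none was higher beside 16.4%. In C against H no member passed beside 1.06% of genes called lower: Slc18a3 differed by -1.22 (limma adjusted p = 0.0552), Mnx1 by -0.73 (0.0596), Ache by -0.42 (0.0689), Chat by -1.07 (0.0875), Slc5a7 by -0.88 (0.105) and Isl1 by -0.27 (0.170). In E against H, Mnx1 passed (-0.73, limma adjusted p = 0.0453) beside 2.15% of genes called lower, a call that was lost without E75, E77, H1 or H2. The others in E against H were Slc18a3 at -1.13 (limma adjusted p = 0.0553), Slc5a7 at -0.76 (0.130), Ache at -0.29 (0.161), Chat at -0.74 (0.187) and Isl1 at -0.15 (0.396). These comparisons share the 3 H libraries. A count that differs between them is therefore no measure of a treatment, which the comparisons within the model address.

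Carbon dots against saline asks what the particles changed in the model. No member passed in C against P, where limma called 0.00552% of all genes in either direction (1 gene; 1802 at an unadjusted p under 0.05, and 0 by limma-voom). The difference in C against P was -0.25 for Chat (95% interval -1.03 to 0.52), 0.09 for Slc18a3 (-0.69 to 0.86) and -0.19 for Slc5a7 (-0.88 to 0.49). It was 0.04 for Ache (-0.24 to 0.32), -0.26 for Isl1 (-0.51 to -0.01) and -0.05 for Mnx1 (-0.52 to 0.42). The interval for Isl1 lies below 0, but its limma adjusted p was 0.482. The upper bounds for Chat (0.52) and Slc18a3 (0.86) are smaller in size than the gaps between P and H in the same fit (-0.81 and -1.31). Those gaps share the P libraries and have wide intervals of their own, so this does not show how far either gene moved. Smaller changes in either direction were not detectable with 3 mice a group.

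Edaravone against saline gave the same count. No member passed in E against P, where limma called 0% of all genes (889 genes at an unadjusted p under 0.05, and 0 by limma-voom). The difference in E against P was 0.07 for Chat (95% interval -0.71 to 0.85), 0.18 for Slc18a3 (-0.59 to 0.95) and -0.07 for Slc5a7 (-0.75 to 0.61). It was 0.17 for Ache (-0.11 to 0.46), -0.15 for Isl1 (-0.40 to 0.10) and -0.05 for Mnx1 (-0.52 to 0.42). The upper bound for Chat (0.85) exceeds the size of its gap between P and H (-0.81). That for Slc18a3 (0.95) is below the size of its gap (-1.31). For C against E the differences ran from -0.32 for Chat (-1.10 to 0.45) to 0.00 for Mnx1 (-0.47 to 0.47), and no member passed, beside 0.171% of all genes called in either direction. E and C against P share the P libraries. An interval that includes 0 does not show that the groups were alike.

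In all 12 libraries Ache was highest, the 2 transporters followed in either order, Chat came next and the 2 transcription factors were lowest in either order. Slc18a3 was above Chat in every library, by 1.32 to 1.61 times in P, 1.79 to 2.17 times in C and 1.46 to 1.68 times in E, against 1.85 to 2.17 times in H. The 2 transporters changed places. Slc18a3 was 0.607 to 0.954 times Slc5a7 in the 9 ALS model libraries, and 1.29, 1.02 and 0.968 times Slc5a7 in H1, H2 and H4. Neighbours in this order overlapped between mice within each group, namely Chat with Slc18a3, Slc18a3 with Slc5a7, and Mnx1 with Isl1 in all 4 groups. Ache overlapped with no other member in any group. In the group means, Mnx1 was above Isl1 in H (1.63 ± 0.75 and 0.802 ± 0.256 FPKM, SD, n = 3) and in C, and below it in P and E.

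**Figure D3:**
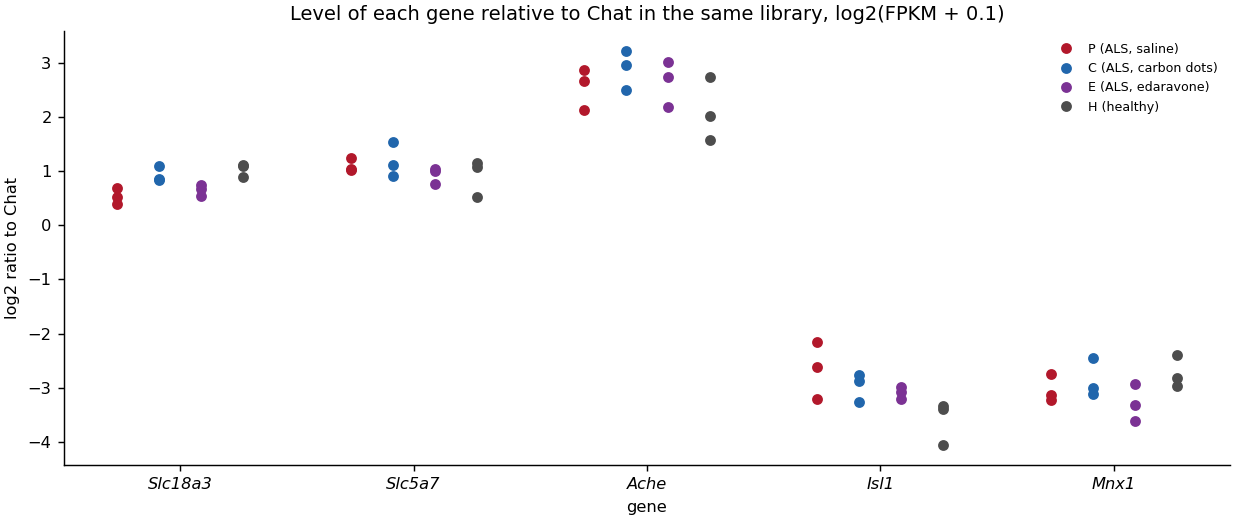
Level of each gene relative to Chat in the same library, as the difference in log2(FPKM + 0.1), with a point for each mouse and groups P, C, E and H from left to right. Relative to Chat, Slc18a3 lay lower in the P and E libraries than in H, and Isl1 lay higher in all 9 ALS model libraries than in all 3 H libraries.

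Each member was set against Chat in the same library. Between the 9 ALS model mice and the 3 H mice, the mean log2 ratio to Chat was -2.90 ± 0.36 and -3.59 ± 0.40 (SD) for Isl1, a difference of 0.69 (exact two-sided permutation p = 0.0136, adjusted over the 5 ratios 0.0682). For Slc18a3 it was 0.70 ± 0.21 in the ALS model and 1.03 ± 0.13 in H, a difference of -0.33 (exact permutation p = 0.0318, adjusted 0.0796). The ratio of Ache differed by 0.58 (exact permutation p = 0.0636, adjusted 0.106), that of Slc5a7 by 0.16 (exact permutation p = 0.364, adjusted 0.364) and that of Mnx1 by -0.34 (exact permutation p = 0.159, adjusted 0.199). None of the 5 ratios passed after adjustment, so an unequal change of the members was not shown. The smallest p that the 220 regroupings can give is 0.00455.

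General neuron transcripts were themselves lower, so each member was also set against the mean of 12 general neuron genes in its library. Of those 12, 8 fell and none rose in P against H (median -0.51), beside 3.26% and 12.2% of all genes. Uchl1 (-0.61, limma adjusted p = 0.00874), Stmn2 (-0.59, 0.0142) and Thy1 (-0.52, 0.0214) led. Relative to them, Mnx1 differed by -1.01 between the ALS model and H (exact permutation p = 0.0227) and Slc18a3 differed by -0.99 (exact permutation p = 0.0182), both with an adjusted p of 0.0682 over the 6 members. Chat differed by -0.67 (adjusted 0.136) and Slc5a7 by -0.51 (adjusted 0.136) in the same exact permutation test. Ache differed by -0.09 (adjusted 0.414) and Isl1 by 0.02 (adjusted 0.945). None of the 6 passed.

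Several members ranked the mice of a group alike. H4 was the lowest H library for all 6 genes. Among the saline-treated mice, P66 was lowest, P67 next and P74 highest for all 6. In C and E the lowest mouse differed between members, with C79 lowest for Chat, Slc18a3, Slc5a7 and Isl1 and C85 for Ache and Mnx1. The calls depended on which library was left out, and so did the number of calls over all genes. Without P66, P67, H1 or H2, no member passed in P against H: Slc18a3 differed by -1.02, -1.37, -1.06 and -1.22 and Ache by -0.30, -0.51, -0.40 and -0.45, with limma adjusted p-values from 0.0650 to 0.132. Those fits called 129, 215, 496 and 153 of all 18119 genes lower, against 591 with all libraries. Without P74, 3 members passed (Slc18a3, Ache and Mnx1), and without H4, 4 passed (those and Chat, at -1.17, limma adjusted p = 0.0422). Over all genes, 914 were called lower without P74 and 640 without H4. In the ALS model against H, none passed without H1 or without H2, and 5 passed without H4, without P74 or without E90. Genes called lower over all were 427 and 202, then 938, 1016 and 566 in those fits, against 761 with all libraries. In C against H, all 6 passed without H4, where 572 genes were called lower, against 192 with all libraries. Isl1 lay between -0.14 and 0.08 in P against H in the 14 fits that tested it and passed in none. The calls of Slc18a3 and Ache in P against H were also lost with no filter on low values and with only the P and H libraries in the fit.

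The level along the cord was read from 8 Hox genes of the caudal cord, as the mean of their log2(FPKM + 1). This caudal Hox score was 0.96 (P66), 2.33 (P67) and 2.82 (P74) in P, and 1.51 (C79), 0.61 (C84) and 1.41 (C85) in C. It was 2.49 (E75), 2.92 (E77) and 3.00 (E90) in E, and 1.86 (H1), 1.46 (H2) and 0.35 (H4) in H. H4 had the lowest score of the 12, and P66 the lowest of its group. With the score as a covariate in the fit, 5 members were lower in P against H: Slc18a3 at -1.71 (limma adjusted p = 0.00437), Chat at -1.21 (0.0217), Slc5a7 at -1.03 (0.0262), Mnx1 at -0.89 (0.0141) and Ache at -0.60 (0.00635). Isl1 was at -0.09 (limma adjusted p = 0.629). Calls rose over all genes too: 1141 of 18119 were called lower with the score, against 591 without it. The same 5 members passed with H4 left out as well, where Slc18a3 was at -1.79, Chat at -1.30 and 1068 genes were called lower. None passed in C against P, E against P or C against E with the covariate, although 3 members in C against P (Chat, Slc5a7 and Mnx1) and 5 in C against E changed sign. Slc18a3 was then at 0.51 in C against P (limma adjusted p = 0.575). The score differs between groups, so the covariate also takes part of any group difference, and whether the score reflects where the cord was sampled was not tested.

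Other transcripts of the dissected tissue moved with the groups and are given beside these results. 9 of 10 skeletal muscle markers were tested, and the list's summed level was 2.75 to 183 FPKM in the ALS model libraries, highest in P74, and 2454 (H1), 230.5 (H2) and 25.4 (H4) FPKM in H. Muscle makes Ache, Chrna1 and Colq of its own. H4, with the least muscle RNA of the H libraries, had the most erythroid RNA. The 8 erythroid markers, from cells that also carry Ache, summed to 129.5 to 409.7 FPKM in the ALS model libraries and to 1281 (H1), 420.8 (H2) and 2610 (H4) FPKM in H. The part of muscle and erythroid RNA in the Ache result was not tested. Markers of Schwann cells, the glia of nerve roots, summed to 171 to 246 FPKM in P, 83.7 to 195 in C and 386 to 876 in E, against 47.3 to 127 FPKM in H. Of the 7 tested, 3 were higher in P against H, beside 12.2% of all genes, and 6 in the ALS model against H, beside 16.4%. The medians were 1.06 and 1.32. In C against E 2 were lower, beside 0.171% of all genes called in either direction. The part of Schwann cell RNA in the members' differences was not tested. Of 10 sensory ganglion markers, Mrgprd was listed at 0 in all 12 libraries and Scn10a in 10 of 12, while Avil was higher in P against H (0.55, limma adjusted p = 0.0151) and in the ALS model against H (0.44, limma adjusted p = 0.0123). The list summed to 10.1 to 25.7 FPKM in the ALS model libraries and 20.7 to 26.5 FPKM in H, and the part of these cells in the Isl1 level was not tested.

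Other motor neuron markers were lower too. Of 12 that are no members, 6 were lower in P against H and 1 was higher, beside 3.26% and 12.2% of all genes. Their median was -0.87, against 0.07 for all genes tested. Chodl, a membrane protein of fast motor neurons, differed by -2.15 (limma adjusted p = 0.000939), the synuclein Sncg by -0.90 (0.00233) and Mmp9, a protease of vulnerable fast motor neurons, by -0.92 (0.00374). The neurofilament subunits Nefm (-1.23) and Nefh (-1.06) and the intermediate filament Prph (-0.99) also fell, while Spp1, which microglia make as well, rose by 1.40. None of the 5 GABA and glycine neuron genes passed (median -0.10). The glycine transporter Slc6a5 (-0.64, limma adjusted p = 0.0946) and the vesicular transporter Slc32a1 (-0.58, limma adjusted p = 0.0634) had differences about as large as that of Slc5a7 (-0.69). Mnx1 differed by -0.68 on this scale, which compresses its low level, and by -1.22 with 0.1 added. None of the 3 glutamate neuron genes passed (median -0.24). The 11 markers without Spp1 summed to 323 to 654 FPKM in the ALS model libraries and to 1301 (H1), 1220 (H2) and 663 (H4) FPKM in H. H4 was the lowest H library in this sum too, and it lay just above the highest ALS model library, P74 (654 FPKM). With Spp1 kept in, the sum was 714 FPKM in H4, below P74 (776), E90 (772) and C84 (726). Nefh and Nefm gave 220 and 320 FPKM of the H4 sum. In P74 Nefh was higher than in H4 (255 FPKM) and Nefm lower (292 FPKM).

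Of 23 tested transcription factors and cofactors of motor neurons and neighbouring spinal neurons besides Isl1 and Mnx1, 1 fell and 2 rose in P against H (median 0.03). Both counts are near the shares over all genes, 3.26% lower and 12.2% higher. The one that fell was Lhx4, a LIM homeodomain factor of motor neuron specification. Lhx4 had 0.535 (P66), 0.452 (P67) and 0.717 (P74) FPKM in P, against 2.47 (H1), 2.22 (H2) and 1.09 (H4) FPKM in H (-0.87 ± 0.17, limma adjusted p = 0.00832). The LIM cofactor Ldb1 (0.32, limma adjusted p = 0.0395) and the progenitor factor Nkx6-1 (0.50, limma adjusted p = 0.0461), which glia express too, rose. In the ALS model against H the motor neuron factor Isl2 also fell (-0.63, limma adjusted p = 0.0166), with 0.185 to 0.617 FPKM in the 9 ALS model libraries and 1.36 (H1), 1.64 (H2) and 0.422 (H4) FPKM in H.

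Of 20 tested genes of choline and acetylcholine handling, 2 fell and 3 rose in P against H (median 0.13), beside 3.26% and 12.2% of all genes, so the number that rose was near the background. Pcyt1b, an enzyme of phosphatidylcholine synthesis, differed by -0.64 ± 0.15 (limma adjusted p = 0.0180). Acly, which makes the acetyl-CoA of the cytosol, differed by -0.68 ± 0.21 with a limma adjusted p of 0.05 after rounding, just inside the threshold. Phospholipase D Pld2 (0.74 ± 0.11, limma adjusted p = 0.00242) and the choline transporter-like genes Slc44a3 (0.48, 0.00871) and Slc44a2 (0.62, 0.0297) rose. In the ALS model against H, 4 fell and 4 rose, beside 4.2% and 16.4% of all genes, so the number that rose was again near the background. The 4 that fell held both anchors of Ache, the collagen tail Colq (-0.36, limma adjusted p = 0.0261) and the membrane anchor Prima1 (-0.35, limma adjusted p = 0.0275). Prima1 had 9.86 to 13.3 FPKM in the ALS model libraries and 16.4 (H1), 16.2 (H2) and 11.6 (H4) FPKM in H, and overlapped.

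Few receptors for acetylcholine passed. Of 15 tested genes of nicotinic receptors and their partners, none rose and 2 fell in P against H (median -0.12), beside 12.2% and 3.26% of all genes: the receptor modulator Lynx1 (-0.67 ± 0.19, limma adjusted p = 0.0342) and the receptor chaperone Tmem35a (-0.61 ± 0.16, limma adjusted p = 0.0254). Chrna2, a subunit of spinal interneurons, fell in the ALS model against H (-0.51, limma adjusted p = 0.0328). None of the 5 muscarinic receptors passed in P against H, and in the ALS model against H only Chrm2, a receptor of motor neurons among other cells, did (-0.58, limma adjusted p = 0.0235). Chrm2 had 6.12 to 12.1 FPKM in the ALS model libraries and 13.7 (H1), 14.7 (H2) and 10.7 (H4) FPKM in H. None of the 4 tested organisers of the neuromuscular junction passed in either comparison. In C against P and in E against P no gene of any of these lists passed.

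The genes most like Chat across the libraries were found by Pearson's r of log2(FPKM + 1) over the 12 libraries, among 12702 tested genes with a mean of at least 1 FPKM. Members and unnamed gene models were left out. The 12 libraries share the 4 group means, so r was also taken after each group's mean was removed. Acly came first both ways, with r = 0.975 over the 12 libraries and 0.975 within groups. Epb41l3 (0.970), Slc29a4 (0.967), Arhgap36 (0.962) and Esyt1 (0.959) followed over the 12 libraries, and Arhgap36 (0.967), Susd2 (0.961), Epb41l3 (0.956) and Akap12 (0.956) within groups. Among the members, r to Chat was 0.952 for Slc18a3 (0.974 within groups), 0.938 for Slc5a7 (0.898), 0.905 for Mnx1 (0.862), 0.880 for Ache (0.829) and 0.770 for Isl1 (0.840). For scale, over the 12 libraries Susd2 at 0.924 ranked only 39 among the 12702 genes, and Akap12 at 0.904 ranked 78. These values describe 12 libraries that also differ in caudal Hox score and in general neuron transcripts.

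Acly itself had 39.7 (P66), 51.5 (P67) and 62.6 (P74) FPKM in P, 42.5 (C79), 57.6 (C84) and 45.4 (C85) FPKM in C, and 52.1 (E75), 50.4 (E77) and 59.7 (E90) FPKM in E. In H it had 104 (H1), 88.6 (H2) and 58.2 (H4) FPKM. As for Chat, H1 and H2 stood above all ALS model libraries and H4 lay among them. Acly was picked by its r to Chat in these same libraries, so this likeness follows from the choice. Acly fell in the ALS model against H (-0.67 ± 0.17, limma adjusted p = 0.0190). Of the other 6 named genes, Susd2 (-0.62, limma adjusted p = 0.00769) and Epb41l3 (-0.40, limma adjusted p = 0.0379) fell in that comparison, and 4 did not pass. Acly and these genes were picked by r to Chat, so their differences against H are not independent of that of Chat.

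**Figure D4:**
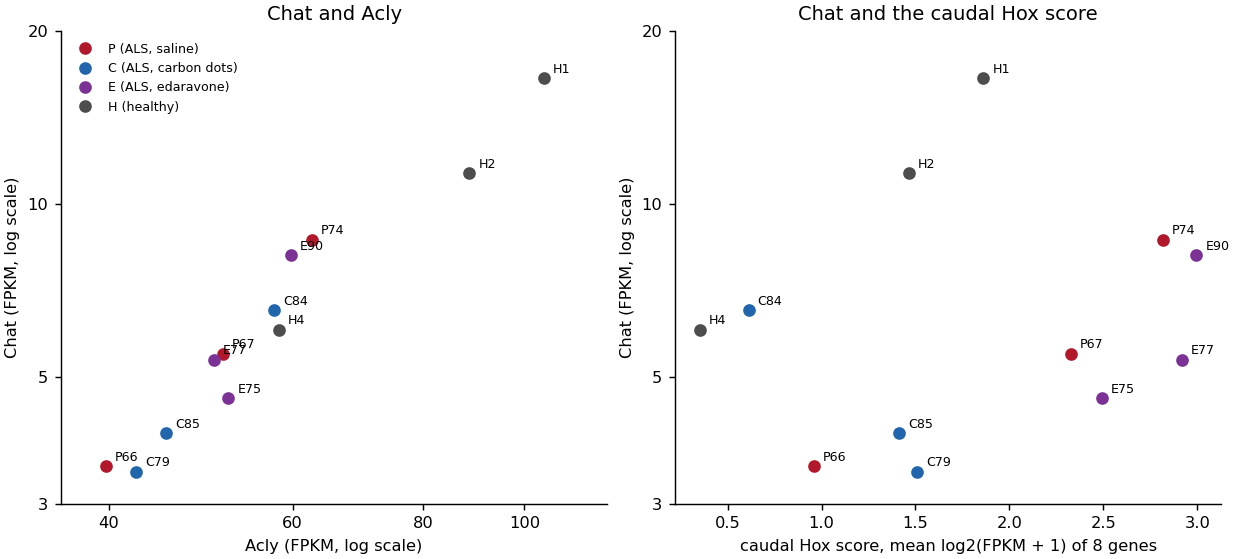
Chat level (y axis, FPKM, log scale) against Acly level (left, FPKM, log scale) and against the caudal Hox score (right), with a point for each of the 12 libraries. On the left the libraries of all groups lie along one line, which follows from picking Acly by its r to Chat. H1 is at 104 FPKM of Acly and 16.6 of Chat. On the right H4 has the lowest score, of 0.35, and the lowest Chat of H, while C84 has the lowest score of C and its highest Chat.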

How the data were processed

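Per the labels' protocols, lumbar cords were homogenized for TRIzol extraction, mRNA was enriched by oligo(dT), and the second cDNA strand was marked. The tools cutadapt, HISAT2 and featureCounts and the build GRCm38 were used, per the submitters' processing notes. No version, role or strand setting is stated there. The authors deposited 1 table per group that names no unit. The deposited values were read as FPKM, because 95.2 to 95.6% of low values (up to 50 reads), multiplied by GENCODE M21 exon length, lay within 0.02 of a whole multiple of 1 step per library. Reads recovered with that step summed to 16.8 to 19.8 M a library. The total that the step itself implies was lower, at 15.5 (C85) to 18.4 (C84) M, and the cause of this gap was not tested. For Chat and Slc5a7 the recovered reads were up to 0.381 and 0.5 from whole, so their read numbers are approximate. 33829 of 33906 identifiers matched GENCODE M21, and 945 were 0 in every library.

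A gene was tested if 3 or more libraries held 10 reads of it (scaled by depth) and all libraries together 15, which left 18119 and set aside 15787. limma 3.58.1 in R 4.3.3 was fitted to log2(FPKM + 1) with 1 mean per group, trended and robust moderation, and 8 residual degrees of freedom. On this scale a fold change understates the change of a low gene. A test on simulated data for P against H over 18119 genes recovered 61 of 100 genes lowered 2-fold and 98 of 100 lowered 4-fold, with 12 false calls. The simulation set the same spread between mice for all genes and lowered only genes above a floor of mean reads. Every member but Ache varied more between the H mice than was simulated. These rates therefore do not give the power for those members. Ratios within a library used log2(FPKM + 0.1) and the exact two-sided permutation test. The members, gene lists and tests were chosen with earlier results of these data known. All 6 members were named whatever their test gave; from each list up to 3 genes of smallest adjusted p that passed in P against H were named by rule, and other genes of the lists were chosen after their values were seen. The 5 genes of highest r to Chat, over all libraries and within groups, were also named.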

Additional observations from a re-analysis of the deposited data

How the results depend on the processing

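Each member's difference was recomputed with 0.1 added in place of 1, with no filter on low values, with a filter of at least 1 FPKM in at least 3 libraries (which left Isl1 and Mnx1 untested), with median-ratio scaling, with limma-voom on recovered reads, with only the groups compared, with the caudal Hox covariate, and without each library; the fit with the covariate and no H4 was added after seeing the data. Of the recomputed values, which include the ratios within a library, 60 came to pass, 25 ceased to pass and 48 changed sign. Another 616 kept their direction and side of the threshold. Among the 616 are some counts of members that passed in the ratio tests, which kept their number, and 6 further counts of that kind changed. Where no value below shows a cause, the cause was not tested. No paired analysis was possible because no mouse number is shared between groups.

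In P against H, 2 members passed, against 0 with no filter and 0 with only the groups compared, 5 with the covariate, 5 with the covariate and no H4, and 0 to 4 without 1 library. In C against H, 0 passed, against 2 with median-ratio scaling, 1 with limma-voom, 4 with the covariate, 2 with the covariate and no H4, and 0 to 6 without 1 library. In E against H, 1 passed, against 0 with no filter, 0 with the FPKM filter (Mnx1 untested), 2 with median-ratio scaling, 0 with only the groups compared, 5 with the covariate, 5 with the covariate and no H4, and 0 to 2 without 1 library. In the ALS model against H, 3 passed, against 5 with median-ratio scaling, 5 with the covariate, 5 with the covariate and no H4, and 0 to 5 without 1 library. Median-ratio scaling shifted the median of all genes by -0.09 in P against H and in the ALS model against H. The number of all genes called lower in P against H also changed between these fits, from 129 without P66 to 1366 with limma-voom. No member passed in C against P, E against P or C against E in any of these fits.

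None of the 5 ratios to Chat passed, against 2 with 1 added in place of 0.1, and 0 to 2 without 1 library. The ratio of Mnx1 to Chat was then 0.16 with 1 added. None of the 6 members passed relative to general neuron genes, against 0 to 3 without 1 library. Without 1 library the ratio of Slc5a7 to Chat ran from -0.0421 to 0.273, and relative to general neuron genes Isl1 ran from -0.25 to 0.16 and Ache from -0.17 to 0.02.

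Signs turned for values that did not pass. With 0.1 added, Isl1 in P against H was 0.0182. With the covariate, C against P was 0.17 for Chat, 0.17 for Slc5a7 and 0.17 for Mnx1, E against P was -0.31 for Chat and -0.20 for Slc18a3, and C against E was 0.47 for Chat, 0.70 for Slc18a3, 0.57 for Slc5a7, 0.14 for Ache and 0.0628 for Isl1. Without 1 library, Isl1 in P against H ran from -0.124 to 0.0756. C against P then ran from -0.528 to 0.0261 for Chat, -0.20 to 0.32 for Slc18a3, -0.423 to 0.0789 for Slc5a7, -0.12 to 0.15 for Ache and -0.132 to 0.0502 for Mnx1. E against P ran from -0.20 to 0.35 for Chat, -0.11 to 0.41 for Slc18a3, -0.32 to 0.20 for Slc5a7 and -0.234 to 0.0495 for Mnx1. C against E ran from -0.30 to 0.17 for Slc18a3, -0.36 to 0.12 for Slc5a7 and -0.10 to 0.18 for Mnx1. Isl1 and Mnx1 rest on few reads per library, and each group on 3 mice.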
